A study of Mus musculus with 8 samples.

Results

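The 7 mouse Schlafen genes described here were followed across the libraries, namely Slfn1, Slfn2, Slfn3, Slfn4, Slfn5, Slfn8 and Slfn9. They were picked by gene symbol, with earlier results of these data known, and are 7 of the 24537 rows of the count table. All 7 lie on chromosome 11 within 263.1 kb (82952102 to 83215154, mm10), and all 7 passed the filter on low counts.

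RNA was sequenced from EpCAM-sorted cells of pancreatic tumours of FVB/NJ mice, 1 library per tumour. Every mouse, controls included, carried the alleles KrasLSL-G12D, Tp53f/f, Rosa26LSL-Luc and Pdx1-Cre, where the Pdx1 promoter drives Cre in the pancreatic lineage. From 42 to 43 days of age all mice received gemcitabine, a nucleoside analogue that stalls DNA replication, at 50 mg/kg on days 1 and 4. They also received antibody at 25 mg/kg on days 1, 3 and 5, which was control IgG in 4 mice and an antibody neutralising the cytokine LIF in the other 4, and tumours were taken on day 6 at around 48 days of age. The IgG tumours are KPCL-PCC_203_G and KPCL-PCC_343_G, then KPCL-PCC_345_G and KPCL-PCC_393_G. The anti-LIF tumours are KPCL-PCC_227_GA and KPCL-PCC_310_GA, then KPCL-PCC_354_GA and KPCL-PCC_391_GA, and values per tumour are given in these orders throughout. With gemcitabine in both arms, each difference below is one between antibodies under chemotherapy.

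Schlafen proteins, named after the German word for sleeping because Slfn1 slows the growth of thymocytes, share an N-terminal core that in several members cuts or binds tRNA. The family is split by size into short members (Slfn1, Slfn2), intermediate members (Slfn3, Slfn4) and long members (Slfn5, Slfn8, Slfn9), the last of which add a helicase-like region. Many members are induced by type I interferon, which signals through the receptor chains IFNAR1 and IFNAR2 and the kinases JAK1 and TYK2 to a complex of transcription factors that holds STAT2 and IRF9. That complex binds interferon-stimulated response elements in promoters. In mice the family is best known from T cells and myeloid cells, and the human long member SLFN11 is known for sensitising cells to drugs that damage DNA.

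The promoters of the called genes are shown first, with Slfn2 for comparison, because the members that rose differ in whether their start site is preceded by the core of the interferon response element. The core was searched on both strands as GAAA, any 2 bases and GAAA (TTTC, any 2 bases and TTTC on the other strand), from 250 bases before to 50 bases from the start site. Sequences are RefSeq's on GRCm38.p6, the assembly that mm10 names, and capitals mark matches.
Slfn5 (chr11:82951852-82952151, + strand): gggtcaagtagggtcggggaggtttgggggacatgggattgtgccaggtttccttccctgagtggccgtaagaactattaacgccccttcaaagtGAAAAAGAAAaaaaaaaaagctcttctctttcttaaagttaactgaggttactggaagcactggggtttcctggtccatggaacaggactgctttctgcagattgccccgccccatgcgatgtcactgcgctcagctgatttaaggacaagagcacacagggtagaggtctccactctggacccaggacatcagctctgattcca
Slfn9 (chr11:82991781-82992080, - strand): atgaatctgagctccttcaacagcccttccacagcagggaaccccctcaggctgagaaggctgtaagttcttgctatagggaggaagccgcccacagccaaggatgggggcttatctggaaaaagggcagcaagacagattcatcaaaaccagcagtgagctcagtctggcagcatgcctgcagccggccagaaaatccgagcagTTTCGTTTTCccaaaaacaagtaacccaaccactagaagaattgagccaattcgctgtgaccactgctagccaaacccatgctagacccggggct
Slfn8 (chr11:83020761-83021060, - strand): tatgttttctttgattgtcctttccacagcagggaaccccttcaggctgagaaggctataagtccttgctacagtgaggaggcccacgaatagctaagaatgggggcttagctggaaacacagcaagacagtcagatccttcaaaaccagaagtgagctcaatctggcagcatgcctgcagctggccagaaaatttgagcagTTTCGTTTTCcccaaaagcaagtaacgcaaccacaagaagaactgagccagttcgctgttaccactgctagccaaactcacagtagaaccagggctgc
Slfn4 (chr11:83174936-83175235, + strand): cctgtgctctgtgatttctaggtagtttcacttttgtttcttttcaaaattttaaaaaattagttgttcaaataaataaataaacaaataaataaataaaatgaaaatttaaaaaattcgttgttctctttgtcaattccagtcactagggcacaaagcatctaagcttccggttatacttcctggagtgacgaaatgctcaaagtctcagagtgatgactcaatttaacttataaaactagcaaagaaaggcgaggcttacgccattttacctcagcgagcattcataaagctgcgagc
Slfn2 (chr11:83064862-83065161, + strand): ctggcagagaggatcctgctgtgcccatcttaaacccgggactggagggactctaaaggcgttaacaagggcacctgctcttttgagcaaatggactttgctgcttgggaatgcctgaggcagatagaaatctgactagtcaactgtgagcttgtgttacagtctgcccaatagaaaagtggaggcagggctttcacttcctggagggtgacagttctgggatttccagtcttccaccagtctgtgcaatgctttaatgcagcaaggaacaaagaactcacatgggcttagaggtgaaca
The match began 155 bases before the start in Slfn5, 45 before it in Slfn9 and 48 before it in Slfn8. The Slfn9 and Slfn8 matches lie on the reverse strand and read as the same 10 bases, TTTCGTTTTC, on the strand shown. These 2 promoters were 84.9% identical over 292 aligned bases, whereas each other pair of members lay between 52.6% and 63.5%. The windows of Slfn1, Slfn2, Slfn3 and Slfn4 held no match, and 3.44% of the 32851 promoter windows of the reference held one. A second motif, TTCNNNGAA, the core of the element bound by STAT dimers (its own reverse complement, searched once), occurred in 0 of the windows of the 7 genes and in 8.30% of all windows. These letters describe the windows only and say nothing of binding.

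Of the 7 Schlafen genes, 4 rose with anti-LIF, namely Slfn4, Slfn5, Slfn8 and Slfn9, and 0 fell. Slfn5 moved most, 6.15-fold, and the other three by 1.93-fold to 2.26-fold. These 4 (57.1%) stand beside 15.7% of all 14711 tested genes that were called higher and 16.5% called lower, 32.2% in either direction. In each of the 4, every anti-LIF library lay above every IgG library, which held for 17.6% of all tested genes. The long members all rose, the intermediate pair split, and neither short member passed the test. The median log2 fold change of the 7 was 0.95, and that of all tested genes −0.01. Calls were made with edgeR's quasi-likelihood test at an adjusted p of 0.05 over all tested genes, and values are CPM, counts relative to the library total scaled by TMM, unless another unit is named.

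**Figure D1:**
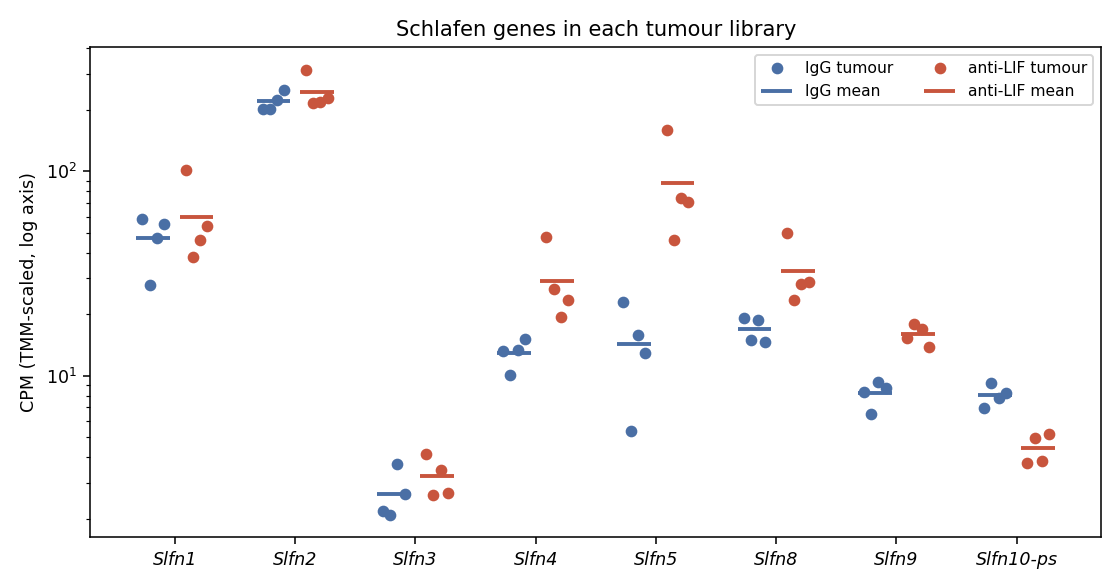
CPM of the 7 Schlafen genes and of the pseudogene Slfn10-ps in each library (log axis, 1 point per tumour, bars at the arm means, 4 tumours an arm). The anti-LIF points lie above all IgG points for Slfn4, Slfn5, Slfn8 and Slfn9, below them for Slfn10-ps, and among them for Slfn1, Slfn2 and Slfn3.

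Among the long members, Slfn5, an interferon-induced nuclear protein, stood at 22.8, 5.38, 15.9 and 13.0 CPM in the IgG tumours. In the anti-LIF tumours it stood at 159.8, 46.0, 74.0 and 70.9 CPM. The lowest anti-LIF tumour lay well above the highest IgG tumour, although within each arm the tumours were far apart, 4.24-fold with IgG and 3.47-fold with anti-LIF. The means were 14.3 ± 7.22 and 87.7 ± 49.7 CPM (SD, n = 4 each), with a log2 fold change of 2.62 ± 0.49 (SE, edgeR adjusted p = 0.00658, 95% interval of the fold 2.86 to 13.2). Among the 7 members this interval was the widest on the log2 scale.

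Slfn9, a long member of the same cluster, was the most even over the anti-LIF tumours of the genes that rose. It stood at 8.32, 6.48, 9.32 and 8.70 CPM under IgG and at 15.3, 18.0, 16.9 and 13.9 CPM with anti-LIF. The arms were separated by a gap, and the highest and lowest anti-LIF tumours differed by only 1.29-fold. The log2 fold change was 0.96 ± 0.15 (SE, edgeR adjusted p = 0.00440), from 8.20 ± 1.22 to 16.0 ± 1.78 CPM (SD, n = 4 each).

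Slfn8, its close copy and a gene studied for its part in T cell development, stood at 19.2, 14.9, 18.6 and 14.7 CPM with IgG. With anti-LIF it stood at 49.9, 23.4, 28.1 and 28.8 CPM, where tumour KPCL-PCC_227_GA was well above the other three. The log2 fold change was 0.95 ± 0.23 (SE, edgeR adjusted p = 0.0164), from 16.9 ± 2.4 to 32.5 ± 11.8 CPM (SD, n = 4 each). Slfn8 was the call closest to the threshold when a tumour was left out, at an adjusted p of 0.0499 without IgG tumour KPCL-PCC_343_G.

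The coding sequences of Slfn8 and Slfn9, 910 codons each, were 92.7% identical over their whole length. Of all 50-base stretches in the GENCODE M21 transcripts of Slfn8 and Slfn9, 14.6% and 11.2% also occur in another Schlafen gene, mostly in the pseudogene Slfn10-ps. The sources used here do not say how reads from such stretches were divided, so the division between these copies is uncertain.

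Slfn10-ps, a pseudogene that lies between Slfn8 and Slfn2, went the other way. It stood at 7.0, 9.22, 7.75 and 8.21 CPM under IgG and at 3.77, 4.94, 3.83 and 5.17 CPM with anti-LIF. All anti-LIF tumours lay below all IgG tumours, as in 18.2% of tested genes, with a log2 fold change of −0.86 ± 0.17 (SE, edgeR adjusted p = 0.00776). Of its 50-base stretches, 19.7% occur in another Schlafen gene.

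The intermediate members Slfn3 and Slfn4 are near copies of each other in sequence, and Slfn4 passed the test while Slfn3 did not. Their coding sequences, 517 and 602 codons, were 95.3% identical over 1521 aligned bases, while 7.39% and 8.15% of their 50-base stretches occur in another Schlafen gene. Slfn4, a gene of myeloid cells that falls as macrophages mature, stood at 13.2, 10.1, 13.3 and 15.1 CPM with IgG. With anti-LIF it stood at 47.5, 26.7, 19.3 and 23.4 CPM, again highest in tumour KPCL-PCC_227_GA. The log2 fold change was 1.17 ± 0.27 (SE, edgeR adjusted p = 0.0138), from 12.9 ± 2.11 to 29.2 ± 12.5 CPM (SD, n = 4 each).

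Slfn3, described in T cells and in the gut epithelium, was the lowest of the 7. It stood at 2.18, 2.09, 3.70 and 2.65 CPM under IgG and at 4.15, 2.60, 3.46 and 2.69 CPM with anti-LIF. The arms overlapped, and the log2 fold change of 0.28 ± 0.26 (SE, edgeR adjusted p = 0.426) has a 95% interval of the fold from 0.812 to 1.82. It had 198 counts over the IgG arm and 200 over the anti-LIF arm. Whether the changes of Slfn3 and Slfn4 differ from each other was not tested.

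The short members were the most abundant in the IgG arm and did not pass the test. With anti-LIF, the mean of Slfn5 (87.7 CPM) lay above that of Slfn1 (59.9 CPM). Slfn2, which keeps T cells and monocytes quiescent in mice, stood at 202, 202, 223 and 250.6 CPM with IgG. With anti-LIF it stood at 314, 214.5, 217 and 228 CPM, so that 1 tumour, KPCL-PCC_227_GA, lay above the IgG range and the other three inside it. The log2 fold change was 0.15 ± 0.14 (SE, edgeR adjusted p = 0.442), with a 95% interval of the fold from 0.889 to 1.38. This interval leaves out the estimated fold of each gene that rose, although the interval of Slfn8 (1.34 to 2.78) overlaps it. Whether the change of Slfn2 differs from theirs was not tested. Slfn1, the founding member, stood at 58.4, 27.8, 47.4 and 55.5 CPM under IgG and at 101.6, 38.1, 46.1 and 53.8 CPM with anti-LIF. Only tumour KPCL-PCC_227_GA exceeded the IgG range, and the log2 fold change of 0.34 ± 0.33 (SE, edgeR adjusted p = 0.452; 95% interval of the fold 0.755 to 2.13) went to −0.04 without that tumour.

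Tumour KPCL-PCC_227_GA was the highest anti-LIF tumour for 6 of the 7 genes, the exception being Slfn9, and tumour KPCL-PCC_310_GA the lowest for 5. Among IgG tumours, KPCL-PCC_343_G was the lowest for 5 genes. In tumour KPCL-PCC_227_GA the macrophage and monocyte markers took 4.57% of counts and the epithelial markers 0.204%, the highest and lowest shares of all 8 libraries, and in tumour KPCL-PCC_343_G the myeloid share was the lowest, 1.32%. Left out of the fit, tumour KPCL-PCC_227_GA changed no call among the 7 genes (log2 fold changes 2.16 for Slfn5, 0.84 for Slfn4, 0.67 for Slfn8 and 0.99 for Slfn9).

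Per length of transcript, the order of levels changed between the arms. In deposited FPKM, the IgG order was Slfn2 at 110.0 ± 12.7, Slfn1 at 21.3 ± 6.76, Slfn8 at 3.87 ± 0.640, Slfn4 at 2.74 ± 0.541, Slfn5 at 2.0 ± 1.06, Slfn9 at 1.77 ± 0.273 and Slfn3 at 1.21 ± 0.307 FPKM (SD, n = 4). From Slfn8 downward the range of each gene overlapped that of the next over the tumours, while Slfn2 and Slfn1 stood clear. Within each IgG tumour, however, Slfn8 lay above Slfn4 and Slfn9 above Slfn3. With anti-LIF the order was Slfn2 at 110.5 ± 13.2, Slfn1 at 24.1 ± 9.48, Slfn5 at 10.9 ± 5.27, Slfn8 at 6.82 ± 1.86, Slfn4 at 5.52 ± 1.95, Slfn9 at 3.17 ± 0.470 and Slfn3 at 1.34 ± 0.229 FPKM. By mean, Slfn5 thus moved from the fifth place to the third. Over the tumours its range overlapped those of Slfn1 and Slfn8, but within each anti-LIF tumour it lay below Slfn1 and above Slfn8. For Slfn4 and Slfn8 the FPKM table holds another transcript of the gene than the count table.

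The make-up of the Schlafen reads needs no scaling between libraries. Slfn5 supplied 2.0% to 7.0% of the reads of the 7 genes in IgG tumours and 12.5% to 23.1% in anti-LIF tumours. Slfn2 supplied 61.9% to 75.2% with IgG and 45.3% to 58.1% with anti-LIF. Neither of these ranges overlapped between the arms, and since shares sum to a whole, a lower share of Slfn2 does not show fewer Slfn2 reads. The share of Slfn9 did overlap, at 2.41% to 2.81% with IgG and 2.21% to 4.86% with anti-LIF. The 7 genes together held 4891 to 6664 reads in IgG tumours and 5531 to 10834 in anti-LIF tumours.

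**Figure D2:**
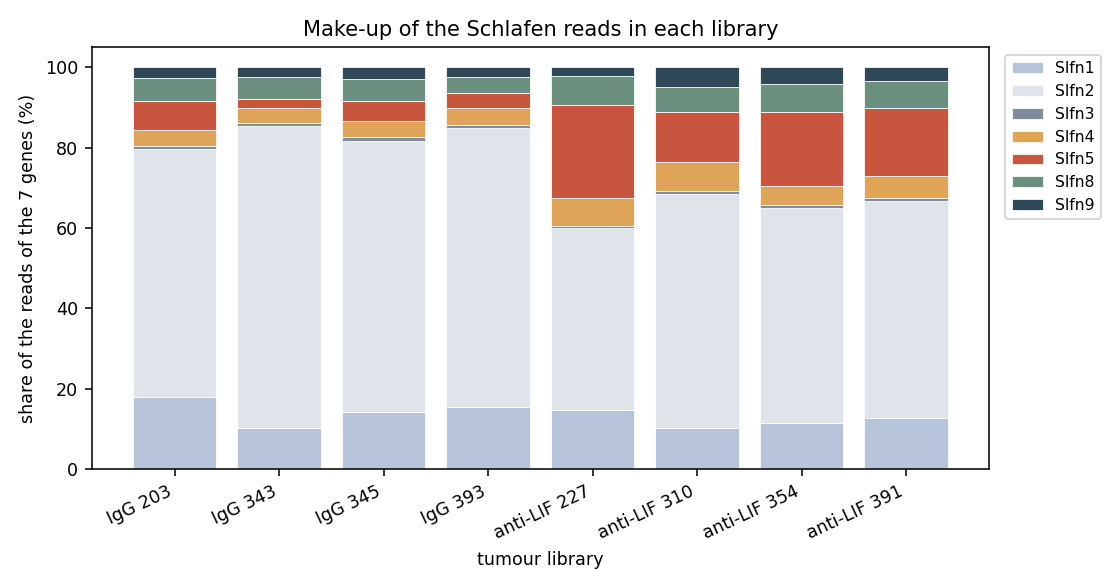
Share of each gene in the reads of the 7 Schlafen genes (y axis, percent), 1 bar per tumour library, IgG on the left. Slfn5 fills 12.5% to 23.1% of each anti-LIF bar and at most 7.0% of an IgG bar, and Slfn2 is the largest segment in all 8.

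Along the chromosome, Slfn5 (82952102 to 82964850, + strand) is followed by Slfn9 (82980303 to 82991830, − strand), Slfn8 (83002158 to 83020810, − strand), Slfn10-ps, Slfn2 (83065112 to 83070678, + strand), Slfn1 (83116845 to 83122659, + strand), Slfn4 (83175186 to 83190216, + strand) and Slfn3 (83191330 to 83215154, + strand). The genes that rose are therefore not 1 run: Slfn4 is set apart from the long members by Slfn10-ps, Slfn2 and Slfn1. Within 200000 bases of this span the table holds 17 rows outside the family. Of the 11 that were tested, 1 was higher, the uncharacterised AI662270 next to Slfn3 (log2 fold change 0.72, adjusted p = 0.00458). The gene that was lower was Gm11423 (log2 fold change −1.04, adjusted p = 0.0250). Of all tested genes, 15.7% were called higher and 16.5% lower. The repair genes Lig3 and Rad51d in the same window had log2 fold changes of 0.09 and 0.02 and did not pass. Slfn14 and Slfnl1, the other two family rows, held 9 and 10 counts over all 8 libraries and were not tested.

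**Figure D3:**
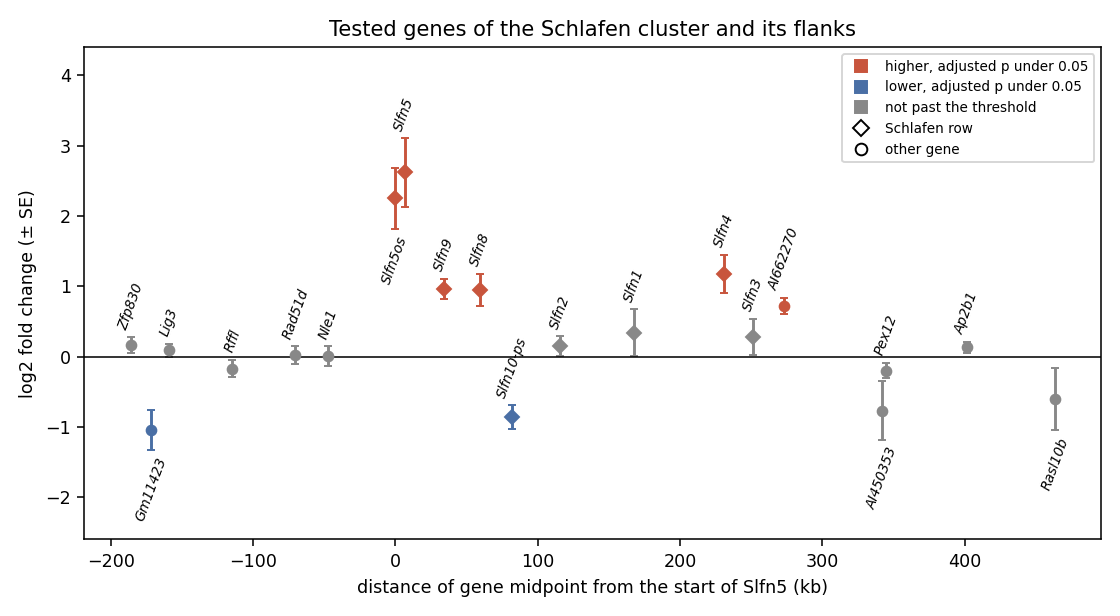
Log2 fold change, anti-LIF minus IgG, with its SE (y axis), of the tested genes around the Schlafen cluster by distance of the gene midpoint from the start of Slfn5 in kb (x axis). Slfn5, Slfn9, Slfn8 and Slfn4 are higher, Slfn10-ps is lower, and Slfn2 and Slfn1 between them lie at 0.15 and 0.34.

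The antisense RNA Slfn5os, whose exons overlap those of Slfn5 over 559 bases on the opposite strand, was higher as well. It had 8, 7, 5 and 9 counts with IgG and 52, 14, 27 and 25 with anti-LIF (log2 fold change 2.25 ± 0.43 SE, edgeR adjusted p = 0.00707). The sources used here do not state whether counting used strand, so reads from the shared bases cannot be told apart from those of Slfn5. How many of the Slfn5os counts come from these bases was not tested. Slfn5 itself had 1049 counts over the IgG arm and 5444 over the anti-LIF arm, against 29 and 118 for Slfn5os.

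The interferon pathway around the family was read by its layers, and its counts stand beside 15.7% of all tested genes called higher and 16.5% called lower. Of 14 interferon genes, 0 had enough counts to be tested and 9 had none at all, among them the 7 Ifna genes listed, while Ifnb1 had 7 counts over the IgG arm and 3 over the anti-LIF arm. Of 6 receptor chains, 4 rose and 1 fell. Ifnar1 rose 1.56-fold and Ifnar2 1.83-fold, while Ifnlr1, the receptor of the lambda interferons of epithelia, fell by 1.36 on the log2 scale. Of 12 kinases and transcription factors, 10 rose and 0 fell, among them Stat2 1.79-fold, Irf9 1.71-fold and Irf7 3.37-fold; Jak2 and Irf3 did not pass. Of 8 inhibitors, 2 rose and 0 fell, the phosphatase gene Ptpn6 1.90-fold and Pias1 1.48-fold, while Usp18, itself interferon-induced, had a fold of 1.27 (adjusted p = 0.565).

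Of 43 interferon-stimulated genes outside the family, 32 rose and 0 fell, with a median log2 fold change of 1.27. Those with the lowest p were Gbp3 (2.80-fold), Bst2 (2.37-fold), Trim30a (2.78-fold) and Xaf1 (2.63-fold). The 11 that did not pass ran from Isg20 (0.963-fold, adjusted p = 0.874) to Ifit3b (2.52-fold, adjusted p = 0.05004), with Adar (1.12-fold), Lgals3bp (1.05-fold), Ifit1 (1.83-fold, adjusted p = 0.130), Rsad2 (1.78-fold, adjusted p = 0.0619) and Cxcl10 (1.58-fold, adjusted p = 0.329). The median of the 7 Schlafen genes, 0.95, lay below that of this list, and the difference was not tested. Counts by list are descriptions.

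**Figure D4:**
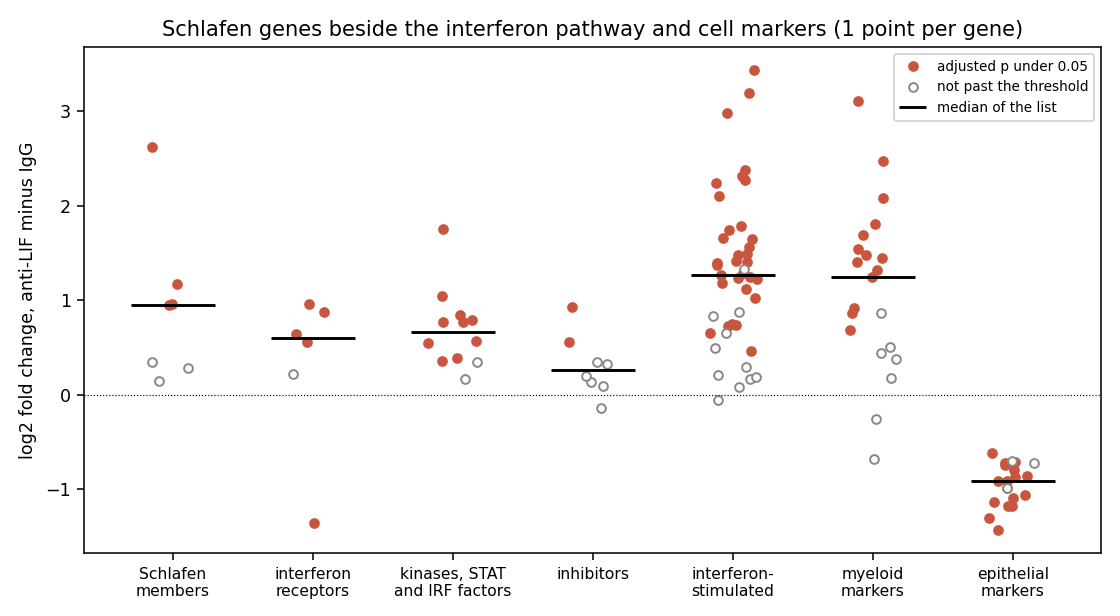
Log2 fold change, anti-LIF minus IgG (y axis), of each tested gene of the Schlafen family, the interferon pathway lists and the myeloid and epithelial markers (x axis). Filled points passed an adjusted p of 0.05 and bars are list medians, which were 0.95 for the Schlafen genes, 1.27 for interferon-stimulated genes, 1.24 for myeloid markers and −0.91 for epithelial markers.

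The libraries were sorted for EpCAM but carried transcripts of blood cells, and these moved with the antibody. Epcam stood at 575 ± 76.8 CPM in the IgG arm and 305 ± 74.8 CPM in the anti-LIF arm, and Ptprc, the pan-leukocyte gene CD45, at 281 ± 45.2 and 511 ± 47.9 CPM (SD, n = 4 each). Of 21 tested macrophage and monocyte markers, 14 rose and 0 fell, and none was at 0. Their summed share of counts ran from 1.32% to 1.79% with IgG and from 2.70% to 4.57% in the anti-LIF libraries (exact permutation test, two-sided, p = 0.0286, the smallest that 4 against 4 allows). Of 20 epithelial markers, 17 fell and 0 rose, and their share ran from 0.651% to 0.792% and from 0.204% to 0.402% (exact permutation test, two-sided, p = 0.0286). In such bulk libraries, fewer cells of a type and less RNA per cell cannot be told apart, and the part of these cell types in the Schlafen results was not tested.

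The Schlafen genes were also read with each library scaled to these markers, which by construction shifts all genes together and is no test of the part of these cells. Libraries were scaled so that the summed counts of the myeloid markers were equal, which does not level each marker. All tested genes then had a median log2 fold change of −1.17, and 1.09% were called higher and 82.9% lower. On that scale Slfn5 had a log2 fold change of 1.34 ± 0.33 (SE, edgeR adjusted p = 0.00173). Under TMM scaling, where Slfn5 had a log2 fold change of 2.62, single myeloid markers ran from −0.69 (Ly6c2) to 3.11 (Ms4a7). Their median was 1.24, and Cx3cr1 stood at 2.47. Slfn4 (−0.10), Slfn9 (−0.17) and Slfn8 (−0.31) did not pass on the myeloid scale, with adjusted p of 0.729, 0.616 and 0.237, and Slfn1, Slfn2 and Slfn3 were called lower (−0.94, −1.07 and −0.91). Scaled to the epithelial markers, where the median of all genes was 1.06 and 77.2% of them were called higher and 1.07% lower, all 7 were called higher, from 1.26 for Slfn2 to 3.83 for Slfn5.

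**Figure D5:**
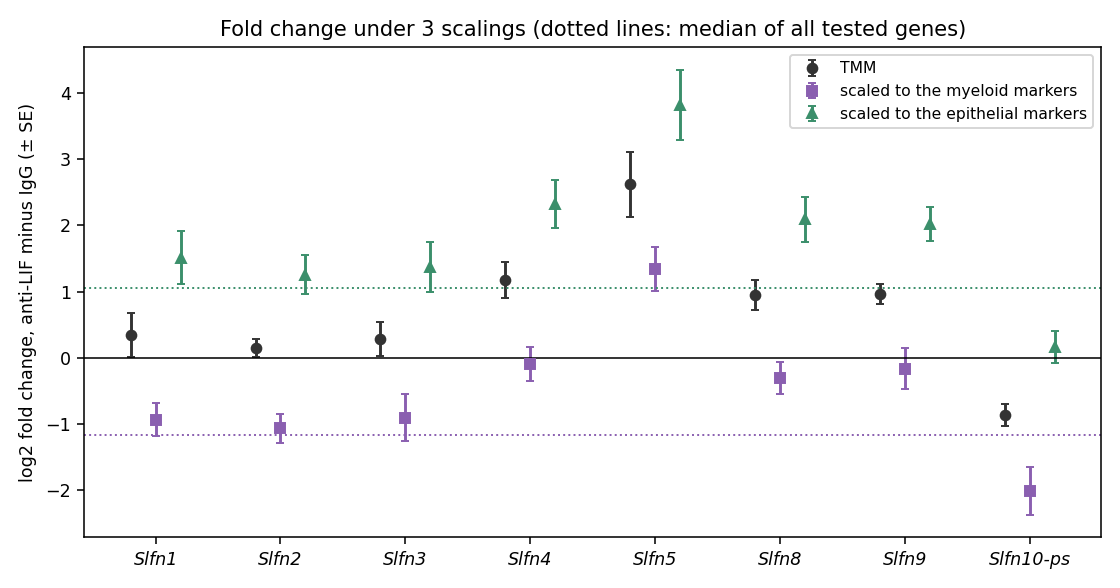
Log2 fold change, anti-LIF minus IgG, with its SE (y axis), of the Schlafen genes and Slfn10-ps under TMM scaling and with libraries scaled to the myeloid or the epithelial markers; dotted lines are the medians of all tested genes on the marker scales, −1.17 (myeloid) and 1.06 (epithelial). Slfn5 lies above 0 under all 3 scalings, while Slfn4, Slfn8 and Slfn9 lie just below 0 on the myeloid scale.

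The tested genes whose log2 CPM followed each member most closely over the 8 libraries were picked by Pearson's r, as a description with no test, since arm and library composition are shared by all points. For Slfn5 they were Folr2, a folate receptor of resident macrophages, Ly9, a leukocyte receptor of the SLAM family, and Stat4 (r = 0.99 each). For Slfn4 they were Gaa, the lysosomal glucosidase, Arl10 and Ninj1 (r = 0.99 each), and for Slfn8 Cpq (r = 0.9985) and Ulk2 (r = 0.99). For Slfn9 they were Pfn1, the actin-binding profilin, Ndufa9 and Lcp1, the leukocyte plastin (r = 0.99 each). For Slfn2 they were Atp6v1a, a subunit of the proton pump of lysosomes (r = 0.97), Csrnp1 (r = 0.97) and Evi5l (r = 0.96). Slfn1 was followed by Fnta (r = 0.99), Lrrc51 (r = 0.97) and Zfp318 (r = 0.95), and Slfn3 by Ccdc32 (r = 0.96), Slc37a4 and Tspyl4 (r = 0.94 each).

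Within the family, Slfn5 was closest to Slfn8 (r = 0.94), Slfn4 (r = 0.91) and Slfn9 (r = 0.88) over the same 8 libraries, and Slfn1 was closest to Slfn2 (r = 0.82). Slfn9 was farthest from Slfn1 (r = 0.33) and Slfn2 (r = 0.34). The antigen of the antibody, Lif, rose 1.56-fold and its receptor gene Lifr 2.46-fold in these libraries, both with arms that did not overlap.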

How the data were processed

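Poly(A) RNA of 8 libraries, 1 per mouse (4 IgG, 4 anti-LIF), was compared. The submitters' processing notes name FastQC 0.11.2, STAR 2.4.0k, HOMER, edgeR 3.6.8 and the build mm10. Per the file headers, the deposited counts are HOMER's, with 1 transcript per gene. The deposited FPKM are scaled by the authors to transcript length and library total. The sources used here do not state strand setting, annotation version or the treatment of reads that map to several copies. The mm10 build is C57BL/6J, the mice are FVB/NJ, and an effect of strain differences was not tested. Counts in genes ran from 15135457 to 18972281 per library, and there were 0 unused sample columns.

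The tests used edgeR 4.0.16 (R 4.3.3): filterByExpr at default settings (14711 of 24537 genes kept), TMM and the quasi-likelihood test, with Benjamini-Hochberg adjustment over all tested genes. A positive log2 fold change means higher with anti-LIF, and 95% intervals use the SE and the fit's degrees of freedom. Log2 CPM for correlations used a prior count of 2. Shares of counts were compared by the exact permutation test over 70 assignments. The 20 alternatives were other scalings, DESeq2 1.42.0, limma 3.58.1 (voom, or FPKM with a pseudocount of 1 or 0.1), robust dispersion, 2 other filters, scaling to myeloid or epithelial markers, and each library left out. The fit was tested on simulated data, where 67, 67 and 66 genes were changed 1.5-fold, 2-fold and 4-fold. It recovered 5.97%, 53.7% and 87.9% of them, and 6 of its 104 calls were false. Fewer genes were changed there than the 4731 called in the data. The members and the gene lists were chosen with earlier results of these data known. Named genes were the members, other Schlafen rows, Lif, Lifr, Epcam, Ptprc, the 4 lowest p of each list with at least 5 tested genes, rows within 200000 bases, and the 3 genes most alike in pattern to each member; other genes were named after their values were seen. Some genes that this rule names are not reported here. Motifs and copies were counted in RefSeq promoters and GENCODE transcripts.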

Additional observations from a re-analysis of the deposited data

Results flagged for a closer look

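Slfn2 stood at 314 CPM in anti-LIF tumour KPCL-PCC_227_GA, while the other 3 anti-LIF tumours lay between 214.5 and 228 CPM. The gap to the nearest tumour was 0.863 of the range of the arm, above Dixon's 95% critical value for 4 samples. It was the only such value among 24 groups of 4 examined, and chance alone gives about 1 in 20. The log2 fold change of Slfn2 did not pass the threshold with this tumour (adjusted p = 0.442) or without it (0.01, adjusted p = 0.973).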

How the results depend on the processing

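Slfn4, Slfn5, Slfn8 and Slfn9 were all called higher in 19 of 20 alternatives, including each library left out; the exception was the scaling to myeloid markers, where 1 Schlafen gene was higher and 3 were lower. With epithelial markers 7 were higher, and in the other 18 alternatives the count was 4. On the myeloid scale the log2 fold changes of Slfn1 (−0.94), Slfn2 (−1.07), Slfn3 (−0.91), Slfn4 (−0.10), Slfn8 (−0.31) and Slfn9 (−0.17) turned negative, and on the epithelial scale Slfn10-ps turned to 0.16. These scalings apply the same factor to all genes of a library, by construction, which shifts their fold changes together but not by equal amounts. Slfn2 turned to −0.0227 with library size alone. With 1 library left out, Slfn1 ran from −0.0351 (without anti-LIF tumour KPCL-PCC_227_GA) to 0.52, Slfn5 from 2.16 to 2.94, Slfn4 from 0.84 to 1.34, Slfn8 from 0.67 to 1.09 and Slfn9 from 0.86 to 1.03. Over all genes, 4731 were called, against 2974 without IgG tumour KPCL-PCC_343_G and 12353 or 11511 on the myeloid or epithelial scale. The share of calls that were higher was 48.7%, against 28.6% with library size alone, 31.3% and 31.5% on FPKM with a pseudocount of 1 and 0.1, and 1.3% and 98.6% on the myeloid and epithelial scales; the median of all genes was −0.16 with library size alone and −0.13 on FPKM with a pseudocount of 0.1. No paired analysis was possible because the arms share no mouse number. Slfn14 and Slfnl1 had too few counts to be tested.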

Other observations

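Hedgehog genes were read because the Hedgehog factor GLI1 is known to act on Slfn4 in the stomach. Of 10 tested, 2 fell and 0 rose, near the 16.5% of all tested genes called lower (15.7% were called higher). Those that fell were the ligand genes Shh (log2 fold change −1.43, edgeR adjusted p = 0.0334, arms overlapping) and Ihh (−1.36, edgeR adjusted p = 0.0258). Gli1 had 127 and 156 counts over the IgG and anti-LIF arms (fold 1.46, edgeR adjusted p = 0.235).

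Markers of other blood cells took smaller shares of counts than the macrophage and monocyte markers. Dendritic cell markers took 0.0177% to 0.0291% of counts with IgG and 0.0121% to 0.0536% with anti-LIF. Neutrophil markers took 0.00938% to 0.0295% with IgG and 0.0154% to 0.0307% with anti-LIF. T cell markers took 0.00381% to 0.00527% of counts with IgG and 0.00644% to 0.00748% with anti-LIF, and 5 of 11 tested rose, Cd4 among them. Of 7 tested B cell markers 2 rose, of 10 dendritic cell markers 3 rose, and of 8 neutrophil markers 1 rose. Of all tested genes, 15.7% were called higher. The neutrophil marker that rose was Csf3r (3.24-fold). S100a8 (0.489-fold, edgeR adjusted p = 0.0802) and Mmp8 (0.415-fold, edgeR adjusted p = 0.0779) pointed lower without passing. The other tested neutrophil markers lay between 1.04-fold (Ltf) and 1.49-fold (Hdc) and did not pass. The 1 tested NK cell marker did not pass and Ncr1 had no counts. Pancreatic acinar markers rose in 13 of 16 tested genes and went from 0.0335% to 0.195% of counts with IgG to 0.271% to 1.53% with anti-LIF. Of 10 endothelial markers 1 rose and 1 fell, and of 11 fibroblast markers 1 rose.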
